A study of Mus musculus with 6 samples.

Results

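The genes described here are 10 markers of the liver sinusoidal endothelium: Stab1, Stab2, Lyve1, Clec4g, Kdr, Pecam1, Oit3, Fcgr2b, Bmp2 and Eng. They were chosen by name, as scavenger receptors, lectins, vascular receptors and associated genes, with no threshold on their values. The choice was made with earlier results of these data known. All 10 were among the 15953 genes of the deposited table, and all 10 were among the 12033 genes that passed the filter on low counts and were tested. The libraries came from livers of C57BL/6 mice, 3 labelled wild type and 3 labelled Cgref1 knockout, and no other allele or agent is named. The labels call the replicates biological ones and state neither how the knockout was made nor the age, sex or number of animals behind a library, so p-values measure the spread between these libraries.

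Sinusoidal endothelial cells line the capillaries of the liver. They form a fenestrated wall without a continuous basement membrane, through which plasma reaches the hepatocytes, and they clear waste macromolecules from blood through scavenger receptors, lectins and Fc receptors. They also signal to hepatocytes, for example through bone morphogenetic proteins that set the output of the iron hormone hepcidin. In RNA from whole liver their transcripts are a small part of the total, and fewer endothelial cells cannot be told apart from less RNA of a marker per cell.

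Library totals ran from 17627734 to 18366443 estimated counts. Replicates are given in the order 1, 2, 3 within a group throughout. Wild type libraries held 7, 7 and 19 counts of Cgref1, and knockout libraries held 7, 12 and 10. The transcript was scarce in both groups and gave no check of the genotype labels, so the groups are called wild type and knockout-labelled below. Wild type libraries held traces of intestinal transcripts that the knockout-labelled libraries lacked, most of them in replicates 1 and 3. Cdh17 had 9, 0 and 18 counts in wild type, Krt20 had 8, 1 and 22, and Sis had 33, 2 and 6. Each of these genes had 0 counts in every knockout-labelled library. The labels name hepatocytes as the cell type and liver as the tissue. The hepatocyte gene Alb had a mean of 44860 TPM (a relative transcript level corrected for transcript length). The 14 genes of a Kupffer cell list summed to 329.2 to 446.9 CPM (counts relative to the scaled library size) and the endothelial markers to 296.4 to 367.0 CPM, so RNA of non-parenchymal cells was present in every library.

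Promoter sequence was at hand for 6 of the 10 genes, and 3 are shown because they cover the range of levels described next: Clec4g had the highest level of the 10, and the paralogues Stab1 and Stab2 the lowest levels. Each is the 250 bases before the RefSeq start (GRCm38.p6), 5′ to 3′ on the gene's own strand. Capitals mark AGGAAG or its reverse complement CTTCCT, a form of the motif of ETS factors such as ERG and FLI1, which are active in endothelial cells.
Clec4g, chr8:3720652-3720901, minus strand: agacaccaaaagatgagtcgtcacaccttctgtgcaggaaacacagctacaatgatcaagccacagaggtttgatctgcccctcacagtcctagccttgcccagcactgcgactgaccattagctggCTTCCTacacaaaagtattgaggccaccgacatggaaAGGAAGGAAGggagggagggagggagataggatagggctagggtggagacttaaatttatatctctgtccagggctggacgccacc
Stab1, chr14:31168642-31168891, minus strand: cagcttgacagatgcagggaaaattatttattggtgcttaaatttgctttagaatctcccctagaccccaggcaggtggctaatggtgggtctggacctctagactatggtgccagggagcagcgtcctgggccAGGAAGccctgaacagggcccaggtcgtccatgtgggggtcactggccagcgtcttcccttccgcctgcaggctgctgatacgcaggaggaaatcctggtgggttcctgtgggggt
Stab2, chr10:87007943-87008192, minus strand: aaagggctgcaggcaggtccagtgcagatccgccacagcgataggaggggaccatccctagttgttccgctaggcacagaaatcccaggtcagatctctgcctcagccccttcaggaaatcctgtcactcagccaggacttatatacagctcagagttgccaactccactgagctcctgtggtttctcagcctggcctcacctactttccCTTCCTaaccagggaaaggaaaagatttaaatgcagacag
The motif stood in 4 of the 6 windows (Clec4g, Stab1, Stab2 and Eng) and in 29.5% of 32851 windows of the same length over all genes. Clec4g held 3 matches, of which the pair 86 to 81 and 82 to 77 bases before the start overlap. Eng held 2, and Stab1 and Stab2 held 1 each, 116 to 111 and 40 to 35 bases before the start. GENCODE M21 starts Stab2 further upstream, at 87008025, so the Stab2 match lies inside that gene model. The windows of Kdr and Fcgr2b held 0, and that of Fcgr2b lies wholly inside the GENCODE gene, which starts at 170976547. A match is a stretch of letters and says nothing about binding in these livers.

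The 10 genes covered a 22.5-fold range of levels per transcript length. Clec4g had a mean of 100.6 TPM over the 6 libraries, Fcgr2b 51.2, Eng 26.8 and Oit3 12.4 TPM, and neighbours in this order, down to Oit3 and Bmp2, had ranges that did not overlap. Lyve1 in wild type replicate 3, at 10.57 TPM, exceeded the lowest Oit3 value of 10.34 TPM. The other 6 lay close together, with means of 7.70 TPM for Bmp2, 7.48 for Kdr, 7.18 for Pecam1, 6.44 for Lyve1, 5.05 for Stab2 and 4.47 for Stab1. Among these 6, neighbours in the order had overlapping ranges over the libraries. Within a library, Bmp2 exceeded Kdr in 4 of 6 libraries and Kdr exceeded Pecam1 in 2. Pecam1 exceeded Lyve1, Lyve1 exceeded Stab2 and Stab2 exceeded Stab1 in 5 of 6 each. No difference between genes was tested. Some genes further apart did not overlap: the highest Stab1 value, 5.17 TPM, lay below the lowest values of Bmp2 (6.21), Kdr (6.13) and Pecam1 (6.35 TPM). The lowest count of any marker in any library was 146 (Lyve1) and the highest 1566 (Clec4g). The transcript length implied by counts together with FPKM, the length-scaled counts in the table, was 7950 to 7976 bases for Stab2 and 1074 to 1084 bases for Clec4g. Within a library, the TPM of Clec4g exceeded that of Stab2 by 15.7 to 27.7-fold.

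**Figure D1:**
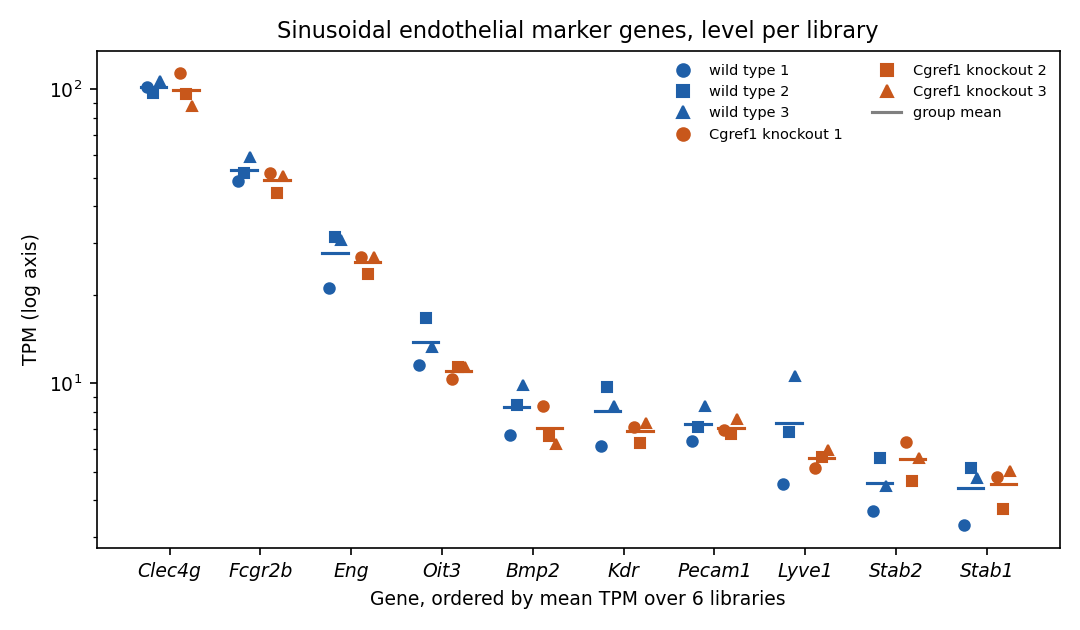
Level of each marker gene in TPM on a log axis, with 1 point per library (blue wild type, orange knockout-labelled, symbol by replicate) and a bar at each group mean. Clec4g, Fcgr2b and Eng stand apart from the other 7, and wild type and knockout-labelled points overlap for every gene except Oit3, whose lowest wild type value (11.54 TPM) lies just above the highest knockout-labelled one (11.41 TPM). The share of all genes without overlap in TPM was not counted.

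The comparison of the groups asked whether the sinusoidal markers differed between wild type and knockout-labelled livers. None of the 10 passed the threshold. At an adjusted p of 0.05 (Benjamini-Hochberg over all 12033 genes), the quasi-likelihood test of edgeR called 0 of 10 markers, against 0.00831% of all genes tested (0.00831% higher and 0% lower), and DESeq2 called 0 of 10, against 0.233%. At an unadjusted p under 0.05, edgeR gave 1 of 10 (Stab2, higher), against 5.15% of all genes tested, of which 2.95% were higher and 2.2% lower. That count of 1 was 0 in 8 of 19 alternatives. In CPM the groups overlapped in all 10 genes, whereas they did not overlap in 10.8% of all genes tested, 6.19% with the knockout-labelled libraries higher and 4.63% with them lower. In TPM the groups overlapped in the markers other than Oit3. That 1 gene stands without a background share, since overlap in TPM was not counted over all genes. The log2 fold changes of knockout-labelled over wild type ran from -0.25 (Lyve1) to 0.40 (Stab2), 6 positive and 4 negative, and 49.5% of all genes tested were positive. Their median was 0.02, beside -0.0022 over all genes tested. The split depended on the scaling: 3 of 10 were positive with library totals and 2 of 10 on log2(TPM + 1). The median over all genes was itself -0.084 with library totals and -0.11 on log2(TPM + 1). That of the markers was -0.06 and -0.10 in the same order. Pecam1, Fcgr2b and Eng changed sign under both, and Clec4g on the TPM scale. Every 95% confidence interval lay within a 2-fold change in either direction, and 9 of 10 held 0. The intervals are not adjusted for the number of genes.

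**Figure D2:**
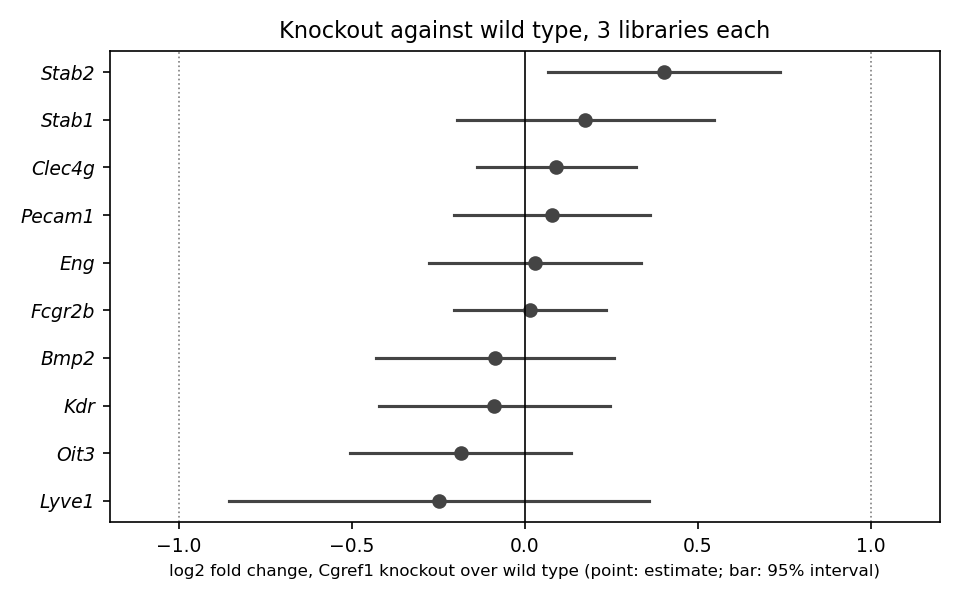
Log2 fold change of each marker gene, knockout-labelled over wild type (3 libraries each), as edgeR's estimate with its 95% interval. Each interval lies between -1 and 1, dotted, and that of Stab2 is the one that does not cross 0.

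Stab2 and Stab1 encode stabilin-2 and stabilin-1, large multidomain scavenger receptors that take up hyaluronan, modified lipoproteins and other ligands. Stab2 lies on chromosome 10 from 86841198 to 87008025, minus strand (GENCODE M21, GRCm38). Wild type libraries stood at 21.3, 31.2 and 24.9 CPM and knockout-labelled libraries at 37.7, 30.2 and 34.5 CPM. Wild type replicate 2 lay within the knockout-labelled range, and the other wild type libraries lay below it. The group levels were 25.8 ± 5.03 and 34.1 ± 3.77 CPM (SD, n = 3), with a log2 fold change of 0.40 (SE 0.15, interval 0.07 to 0.74) and an edgeR adjusted p of 0.918, 0.0236 before adjustment. Over 19 alternatives the adjusted p ran from 0.4705 to 1.00. Without wild type replicate 1 its log2 fold change was 0.27. Leaving out replicate 3 of that group as well, which left 1 wild type library, gave 0.11. The authors' deposited table gives Stab2 a log2 fold change of 0.40 and a q-value of 0.999.

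Stab1 lies on chromosome 14 from 31139013 to 31168641, minus strand, and is also made by macrophages. It stood at 18.7, 28.4 and 26.1 CPM in wild type libraries and at 28.2, 23.7 and 30.7 CPM in knockout-labelled ones. Wild type replicate 1 was the lowest of the 6, and the other wild type libraries lay within the knockout-labelled range. The log2 fold change of Stab1 was 0.18 (SE 0.17, edgeR adjusted p 0.988) with all libraries and 0.0083 without wild type replicate 1. Without wild type replicates 1 and 3, which left 1 wild type library, it was -0.06, so the sign of Stab1 depends on the wild type libraries used. Within a library, the TPM ratio of Stab2 to Stab1 was 1.12, 1.08 and 0.937 for wild type and 1.31, 1.25 and 1.10 for knockout-labelled libraries, and these ranges overlap. The TPM ratio of Stab2 to the vascular receptor gene Kdr was 0.602, 0.576 and 0.532 for wild type and 0.893, 0.744 and 0.758 for knockout-labelled libraries. That ratio and the one of Lyve1 to Stab2 (1.24, 1.22 and 2.37 for wild type, and below 1.22 in each knockout-labelled library) were the 2 of 9 ratios between genes whose groups did not overlap. Both were picked out after their values were seen, both hold Stab2, and neither was tested.

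Lyve1 encodes a hyaluronan receptor of sinusoidal and lymphatic endothelium and lies on chromosome 7 from 110850607 to 110863239, minus strand. It varied most among the 10 genes, by 2.24-fold between its extremes, which were both wild type. It stood at 8.06, 11.7 and 18.1 CPM in wild type libraries and at 9.44, 11.1 and 11.3 CPM in knockout-labelled ones. All knockout-labelled values lay inside the wild type range. For Lyve1 the log2 fold change was -0.25 (SE 0.26, interval -0.85 to 0.36, edgeR adjusted p 0.988), the widest interval of the 10 genes. It was 0.10 without wild type replicate 3 and -0.49 without wild type replicate 1, so 1 library set its sign.

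Other genes of hyaluronan turnover showed no called difference either. Of 16 genes listed for this pathway, 13 were in the table and 9 were tested, Stab2 and Lyve1 among them. EdgeR called 0 higher and 0 lower, and 1 (Stab2) had an unadjusted p under 0.05, against 5.15% of all genes tested. The median log2 fold change was 0.10, with 7 of 9 positive. The lysosomal hexosaminidase subunit gene Hexa stood at 47.1 ± 1.25 and 54.4 ± 4.88 CPM (SD, n = 3; log2 fold change 0.21, SE 0.10), and the hyaluronidase gene Hyal2 at 41.5 ± 2.33 and 47.3 ± 5.45 CPM (0.19, SE 0.11). The hyaluronan synthases Has1 and Has3 stayed below the filter on low counts.

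Among 21 genes listed as scavenger receptors or ligands of stabilins, 19 were tested and edgeR called 0, with a median log2 fold change of 0.0092. At an unadjusted p under 0.05, 2 were higher (Stab2 and Scarb1) and 1 lower (Postn), against 2.95% and 2.2% of all genes tested. The high-density lipoprotein receptor gene Scarb1, which hepatocytes also use, stood at 130.4 ± 10.8 and 164.8 ± 11.99 CPM (SD, n = 3) with a log2 fold change of 0.34 (SE 0.10, edgeR adjusted p 0.850). Sparc, whose matrix protein is a ligand of stabilin-1, stood at 58.6 ± 8.74 and 56.7 ± 5.04 CPM (SD, n = 3).

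Clec4g, which encodes the sinusoidal C-type lectin LSECtin, lies on chromosome 8 from 3707064 to 3720651, minus strand. It stood at 79.6, 73.8 and 80.9 CPM in wild type libraries and at 91.3, 84.6 and 73.6 CPM in knockout-labelled ones. Knockout-labelled replicate 3 was the lowest and knockout-labelled replicate 1 the highest of the 6, and the wild type libraries lay between them. Clec4g was the 1 gene of the 10 with a wider relative spread in the knockout-labelled group, at a coefficient of variation of 10.7% against 4.85%. The Clec4g log2 fold change was 0.09 (SE 0.10, interval -0.14 to 0.32, edgeR adjusted p 0.988). Of 31 C-type lectin genes listed, 24 were tested and edgeR called 0, with a median of -0.05. In this family the Kupffer cell lectin Clec4f had 48.1 ± 3.11 and 62.2 ± 0.505 CPM (SD, n = 3; log2 fold change 0.37, SE 0.09) and the soluble collectin Colec10 had 40.4 ± 5.88 and 30.5 ± 1.52 CPM (-0.41, SE 0.12). These were the 2 lectin genes with an unadjusted p under 0.05, against 5.15% of all genes tested. Their edgeR adjusted p were 0.739 and 0.850. Asgr1, a subunit of the hepatocyte asialoglycoprotein receptor and the most abundant lectin listed, had a log2 fold change of 0.0088 (SE 0.10).

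Fcgr2b encodes the inhibitory Fc gamma receptor, which in sinusoidal cells clears small immune complexes and is also made by B cells and macrophages. It lies on chromosome 1 from 170958617 to 170976547, minus strand. Its levels were the most even of the 10 genes. They lay at 43.9, 45.5 and 51.2 CPM in wild type libraries and at 48.4, 44.6 and 49.1 CPM in knockout-labelled ones. The highest library exceeded the lowest by 1.17-fold, and every knockout-labelled value lay inside the wild type range. For Fcgr2b the log2 fold change was 0.01 (SE 0.10, interval -0.20 to 0.23, edgeR adjusted p 0.995). Fcgr2b shares sequence with other Fc gamma receptor genes, so reads could have been split among them. Per length, it exceeded Fcgr3 by at least 5.56-fold in each library. Of 15 Fc receptor and signalling genes listed, 11 were tested, edgeR called 0 and 10 of 11 were positive, with a median of 0.14. That median was 0.061 with library totals, 0.0023 on log2(TPM + 1) and 0.097 without knockout-labelled replicate 2. The phosphatase gene Inpp5d, whose product acts downstream of the receptor, had 2.12 ± 0.297 and 3.46 ± 0.281 CPM (SD, n = 3; log2 fold change 0.71, SE 0.22, edgeR adjusted p 0.850) and is also active in blood cells. Fcgrt, the neonatal Fc receptor gene, had 157.4 ± 18.01 and 177.3 ± 9.98 CPM, and Fcer1g, the common signalling chain, had 12.2 ± 0.473 and 13.5 ± 1.24 CPM (SD, n = 3).

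Oit3 encodes a secreted zona pellucida domain protein found in liver and lies on chromosome 10 from 59422958 to 59441778, minus strand. It stood at 21.3, 29.9 and 23.7 CPM in wild type libraries and at 19.7, 23.6 and 22.5 CPM in knockout-labelled ones. Wild type replicate 2 was the highest and knockout-labelled replicate 1 the lowest, and the groups overlapped in CPM. In TPM they did not, at 11.54, 16.66 and 13.26 for wild type against 10.34, 11.41 and 11.34 for knockout-labelled libraries. How many of all genes lack overlap in TPM was not counted. On log2(TPM + 1) the median log2 fold change over all genes was itself -0.11. The Oit3 log2 fold change was -0.19 (SE 0.14, interval -0.51 to 0.14, edgeR adjusted p 0.984) and was -0.03 without wild type replicate 2.

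Kdr, Pecam1 and Eng encode receptors and adhesion molecules of all endothelium. Kdr, for the main receptor of vascular endothelial growth factor A, lies on chromosome 5 from 75932827 to 75978458, minus strand. It stood at 23.5, 36.0 and 31.0 CPM in wild type libraries and at 28.0, 27.0 and 30.2 CPM in knockout-labelled ones. The knockout-labelled values lay inside the wild type range, whose low end was replicate 1. For Kdr the log2 fold change was -0.09 (SE 0.15, interval -0.42 to 0.25, edgeR adjusted p 0.990), and it was 0.06 without wild type replicate 2.

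Pecam1, for the junction protein CD31 that platelets and leukocytes also carry, lies on chromosome 11 from 106654217 to 106750628, minus strand. It stood at 14.4, 15.5 and 18.3 CPM in wild type libraries and at 16.1, 17.0 and 17.8 CPM in knockout-labelled ones. All knockout-labelled values lay inside the wild type range. The Pecam1 log2 fold change was 0.08 (SE 0.13, edgeR adjusted p 0.989). Markers of platelets were scarce: 8 listed genes summed to 3.86 to 6.77 CPM in wild type and 3.14 to 3.50 CPM in knockout-labelled libraries, and Tubb1 had 0 counts in each knockout-labelled library. Lymphocyte markers, 15 genes, summed to 8.003 to 11.6 and 8.70 to 11.7 CPM in the same groups. The part of these cells in the Pecam1 level was not tested.

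Eng, for the co-receptor endoglin, lies on chromosome 2 from 32646595 to 32682669, plus strand. It stood at 49.95, 72.3 and 70.5 CPM in wild type libraries and at 65.6, 62.6 and 68.5 CPM in knockout-labelled ones. Wild type replicate 1 was far below the other 5 libraries, which lay between 62.6 and 72.3 CPM. For Eng the log2 fold change was 0.03 (SE 0.14, edgeR adjusted p 0.994) with all libraries and -0.13 without wild type replicate 1.

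The partners of these receptors gave no called difference. Of 19 genes of the vascular endothelial growth factor and angiopoietin axes, 18 were in the table and 16 were tested, with 0 called by edgeR and a median log2 fold change of -0.09. The ligand gene Vegfa stood at 46.6 ± 8.74 and 43.7 ± 0.462 CPM (SD, n = 3). Flt1, the other receptor of that ligand, was lower than Kdr per length by 4.57 to 7.01-fold in each library. Tie1, an orphan receptor of the angiopoietin system, had 12.2 ± 2.46 and 15.9 ± 1.09 CPM (SD, n = 3; log2 fold change 0.38, SE 0.16, edgeR adjusted p 0.944). It was the 1 gene of this axis with an unadjusted p under 0.05, against 5.15% of all genes tested. Its groups did not overlap. Tek, the angiopoietin receptor, had 10.5 ± 0.682 and 9.42 ± 0.381 CPM (SD, n = 3). Tek (log2 fold change -0.16, SE 0.13, edgeR adjusted p 0.984) and the ligand gene Angpt2 also had groups that did not overlap, with the knockout-labelled libraries lower. Of the 16 tested genes of this axis, 1 did not overlap with those libraries higher and 2 with them lower. Over all genes tested the shares were 6.19% and 4.63%. In the 14-gene endoglin and transforming growth factor beta list 12 were tested and 0 called, with a median of 0.10. Gdf2, which encodes the endoglin ligand BMP9, had 15.3 ± 3.64 and 17.3 ± 3.64 CPM, and Acvrl1, the signalling partner of endoglin, had 2.33 ± 0.806 and 3.00 ± 0.449 CPM (SD, n = 3). Tgfbr2, with 32.8 ± 3.13 and 41.2 ± 3.62 CPM (SD, n = 3; log2 fold change 0.33, SE 0.11, edgeR adjusted p 0.903), was the 1 gene of this list with an unadjusted p under 0.05. The share of such genes over all tested was 5.15%.

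Bmp2, a ligand that sinusoidal cells release towards hepatocytes, lies on chromosome 2 from 133552159 to 133562885, plus strand. It stood at 15.7, 19.0 and 22.3 CPM in wild type libraries and at 20.3, 17.1 and 16.2 CPM in knockout-labelled ones. Both extremes were wild type libraries. The Bmp2 log2 fold change was -0.09 (SE 0.15, interval -0.43 to 0.26, edgeR adjusted p 0.990), and it was 0.04 without wild type replicate 3. Bmp6, the other iron-regulating ligand of these cells, had 5.21 ± 0.767 and 4.90 ± 1.12 CPM (SD, n = 3), and per length Bmp2 exceeded it by 2.97 to 3.72-fold in each library. Of 30 genes of this pathway listed, 27 were tested and edgeR called 0, with a median of -0.05. The 2 with an unadjusted p under 0.05, against 5.15% of all genes tested, were the hepcidin genes. Hamp stood at 517.3, 713.6 and 644.3 CPM in wild type libraries and at 474.7, 353.7 and 331.7 CPM in knockout-labelled ones (log2 fold change -0.69, SE 0.16, edgeR adjusted p 0.739). Its near-identical copy Hamp2 had -0.75 (SE 0.26), and reads of the copies may be split uncertainly. Hepatocytes make both. Among other targets of the pathway, Id1 had a log2 fold change of -0.25 (SE 0.20), Smad6 of 0.10 (SE 0.16) and Smad7 of -0.05 (SE 0.24), none with an unadjusted p under 0.05.

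Wild type replicate 1 was the low library for most of these genes, a pattern noticed in the data. It held the lowest CPM of the 6 libraries for 8 of the 10 markers, the exceptions being Clec4g and Oit3, whereas 24.1% of all genes tested were lowest there. On average the markers lay 0.27 below their own 6-library mean in that library on the log2 scale, against deviations of -0.03 to 0.13 in the other 5. Stab1, Stab2 and Lyve1 lay lowest, at -0.46, -0.47 and -0.48, and Clec4g stayed near its mean at -0.01. The deviation in that library was thus not the same for all markers.

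**Figure D3:**
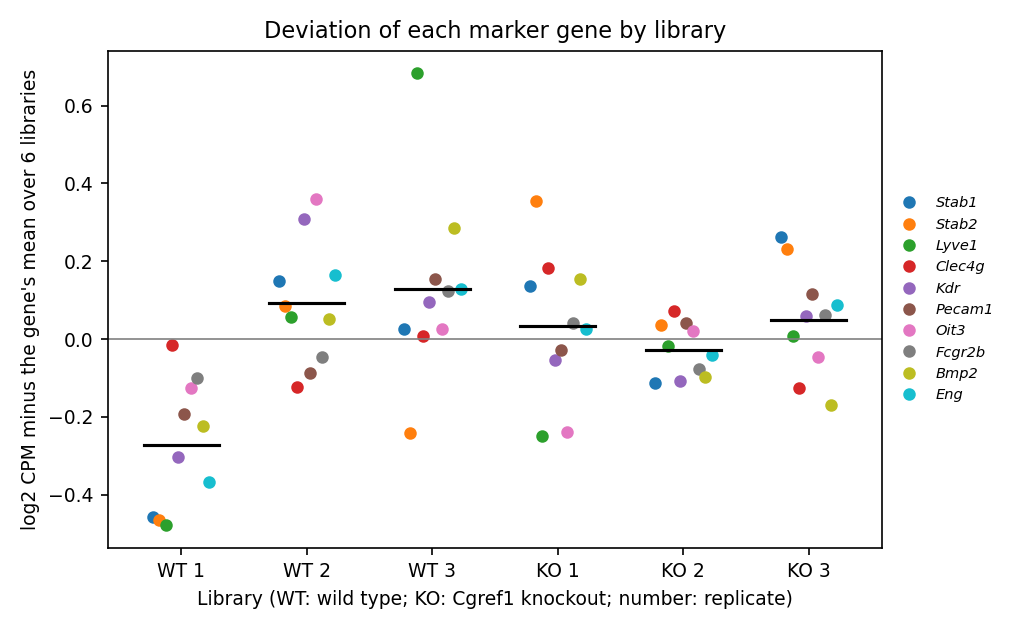
Log2 CPM of each marker gene minus that gene's mean over the 6 libraries, by library, with a black bar at the mean of the 10 genes. The bar stands at -0.27 in wild type replicate 1 and between -0.03 and 0.13 in the other libraries, and Lyve1 in wild type replicate 3 is the highest point at 0.68.

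The same library was low for other endothelial genes. Of 30 further sinusoidal genes, 16 were lowest in wild type replicate 1, and of 25 pan-endothelial genes, which include Kdr, Pecam1 and Eng, 16 were. The mean deviations there were -0.20 and -0.28. These lists share genes such as Cdh5 and Tie1, so the counts are not separate. Merged and without the markers they hold 46 genes, of which 24 (52.2%) were lowest there, against 24.1% of all genes tested. The 14 Kupffer cell genes had a mean deviation of -0.26 in that library, and 8 of them were lowest there. Their mean deviation was also below 0 in wild type replicates 2 and 3, at -0.14 and -0.11. It was 0.13, 0.22 and 0.17 in the knockout-labelled libraries. The dip was not limited to these lists: the 22 tested genes of other vessels deviated by -0.46 there, 5 mesothelial genes by -0.82, 7 erythroid genes by -0.48, 8 lymphocyte genes by -0.34 and 5 cholangiocyte genes by -0.31. The stellate cell list deviated by 0.0077 and the hepatocyte list by 0.03. The hepatocyte list summed to 130700 CPM in wild type replicate 1, its highest value, against 98480 to 125700 CPM in the other libraries. A sum is weighted towards the most abundant genes. By mean deviation the hepatocyte list was highest in knockout-labelled replicate 1, at 0.13. Between the groups, all 14 Kupffer cell genes had positive log2 fold changes (median 0.32, 0 called), against 49.5% of all genes tested. An unadjusted edgeR p under 0.05 was reached by 8 of the 14, against 5.15% of all genes tested. That median was 0.24 with library totals, 0.20 on log2(FPKM + 1) and 0.15 on log2(TPM + 1). All genes tested had medians of -0.084, -0.059 and -0.11 there. The Kupffer cell list was chosen with earlier results of these data known, and its genes are not independent of each other. Its counts are therefore a description only. The Kupffer cell genes summed to 329.2 to 364.2 CPM in wild type and 414.6 to 446.9 CPM in knockout-labelled libraries, none of the 14 at 0. Of 16 stellate cell genes 14 were negative (median -0.26, 0 called; -0.075 without wild type replicate 3 and -0.17 without knockout-labelled replicate 1), with sums of 425.1 to 547.4 and 366.6 to 426.2 CPM. The part of these lists in the marker levels, including those of Stab1 and Fcgr2b that macrophages share, was not tested.

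**Figure D4:**
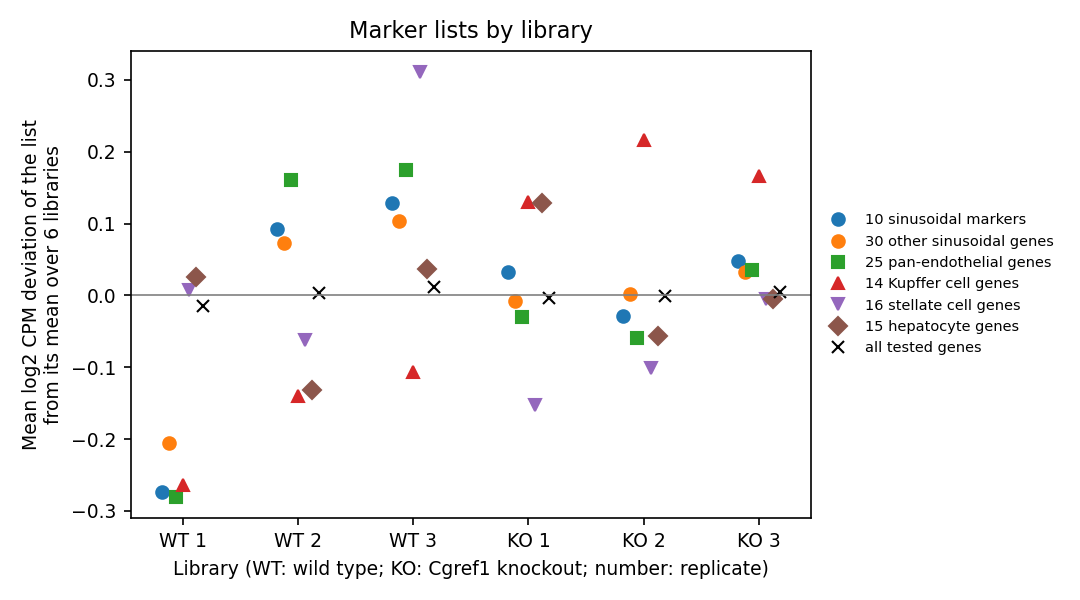
Mean deviation of each gene list from its own 6-library mean on the log2 CPM scale, by library. The 10 markers, the 30 other sinusoidal genes, the 25 pan-endothelial genes and the 14 Kupffer cell genes all stand between -0.28 and -0.20 in wild type replicate 1, and the stellate and hepatocyte lists stand near 0 there. Lists not plotted were also low in that library, among them the erythroid (-0.48) and mesothelial (-0.82) genes. The Kupffer cell list also stands below 0 in wild type replicates 2 and 3, and above 0 in every knockout-labelled library.

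The knockout-labelled libraries were more alike than the wild type ones for these genes. The coefficient of variation was wider in wild type for 9 of 10 markers, with medians of 18.5% and 9.36%. Among 7164 genes with a mean of at least 10 CPM, 59.9% were wider in wild type, with medians of 10.1% and 8.36%. With wild type replicate 1 left out, the markers had 4 positive and 6 negative log2 fold changes and a median of -0.08, in place of 6, 4 and 0.02, and edgeR again called 0 of 10. With wild type replicates 1 and 3 left out together, which left 1 wild type library, the median was also -0.08.

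**Figure D5:**
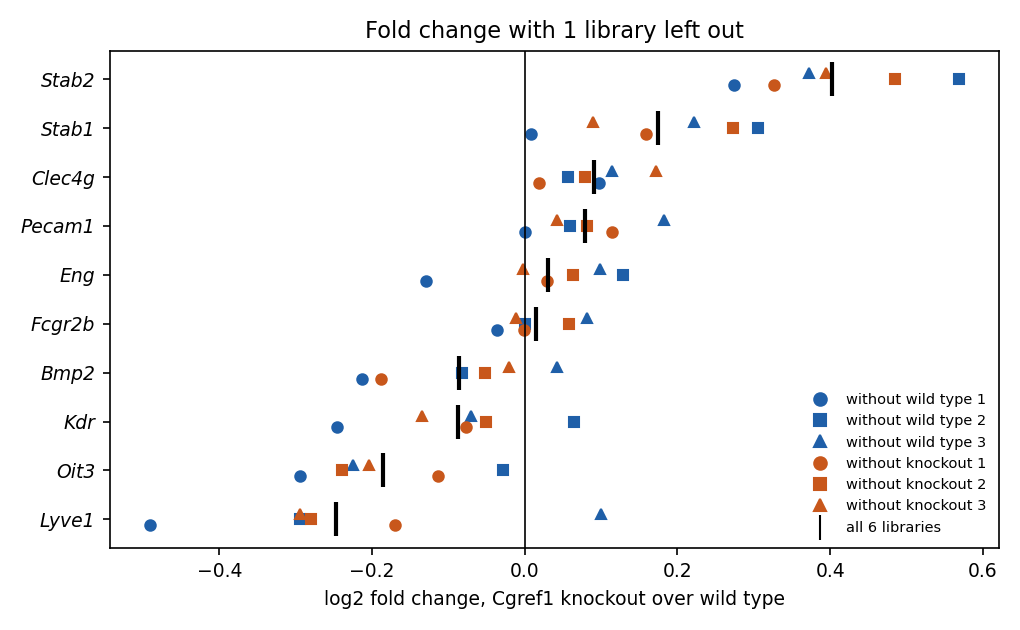
Log2 fold change of each marker gene with all 6 libraries (black bar) and with each library left out in turn (blue wild type, orange knockout-labelled, symbol by replicate). Stab2 stays between 0.27 and 0.57 and Oit3 between -0.29 and -0.03, whereas Lyve1, Kdr, Bmp2, Eng and Fcgr2b fall on either side of 0.

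In the 30 further sinusoidal genes, all of which were tested, edgeR called 0, with 17 positive, 13 negative and a median log2 fold change of 0.03. Tie1 was the 1 gene of that list with an unadjusted p under 0.05, against 5.15% of all genes tested. The most abundant were Ctsl, a lysosomal protease gene shared with many cells (328.2 ± 29.0 and 347.9 ± 21.3 CPM), Plpp3, a lipid phosphatase gene (141.7 ± 11.96 and 145.3 ± 14.8 CPM), and the water channel gene Aqp1 (100.3 ± 21.2 and 115.6 ± 10.2 CPM; SD, n = 3). The fatty acid carrier gene Cd36, which hepatocytes also express, had the lowest log2 fold change of the list, -0.84 (SE 0.50). Gata4, the transcription factor gene tied to sinusoidal identity, had 15.3 ± 1.83 and 14.3 ± 0.915 CPM (SD, n = 3).

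The 25 pan-endothelial genes gave 0 calls, 10 positive and 15 negative values and a median of -0.02. Those with an unadjusted p under 0.05 were Tie1 and the sphingosine-1-phosphate receptor gene S1pr1, at 48.9 ± 3.04 and 36.4 ± 7.73 CPM (SD, n = 3; log2 fold change -0.43, SE 0.15, edgeR adjusted p 0.903). The share of such genes over all tested was 5.15%. Cdh5, the gene of the junction protein VE-cadherin, had 16.7 ± 4.04 and 18.3 ± 3.07 CPM (SD, n = 3). Of 27 genes for other vessels (arterial, portal, central venous, lymphatic or capillarised), 22 were tested with 0 calls and a median of 0.16, which was -0.10 without wild type replicate 1, 0.37 without wild type replicate 3, 0.05 without wild type replicate 2 and 0.0059 without knockout-labelled replicate 3. Those with an unadjusted p under 0.05 were Kit (log2 fold change 0.63, SE 0.23) and Cd9 (-0.43), neither private to vessels, against 5.15% of all genes tested. Rspo3 and Wnt2, listed here with the other vessels, encode Wnt pathway activators for nearby hepatocytes. Their log2 fold changes were -0.23 (SE 0.20) and 0.37 (SE 0.30), and the cells they came from were not tested. Vwf and Cd34, which are low in normal sinusoids, had means of 0.960 and 0.843 TPM.

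The 5 genes outside the 10 whose log2 CPM followed the mean standardized level of the markers most closely over the 6 libraries were Prg4, Sox12, Tmem267, Riox1 and Per1, with Pearson correlations of 0.998, 0.995, 0.994, 0.993 and 0.992. They were picked as the highest of 11319 genes, and the 6 points share their libraries, so the values are a description only. Among the 45 pairs of the 10 markers, 35 correlated positively, with a median of 0.42.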

How the data were processed

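Total RNA from 6 mouse liver samples (3 wild type, 3 Cgref1 knockout) was enriched for messenger RNA and sequenced as circular single-stranded DNA, per the labels' protocols. HISAT, Bowtie2, RSEM and DESeq2 are named in the submitters' processing notes, without order or version; the sources used here do not give the build, the strand setting or the read length. The authors deposited expected counts, FPKM values and TPM values per gene and library, and a log2 fold change with its p-value and q-value, per the file headers; 6 mean columns and 9 columns comparing single libraries were not used. Chromosome accessions are those of GRCm38. The deposited strand differed from GENCODE M21 for Stab2 and Fcgr2b (15.3% of 15642 matched genes), so positions were taken from GENCODE.

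Expected counts were rounded and kept by filterByExpr (minimum count 10), scaled by TMM (factors 0.955 to 1.05) and tested with edgeR 4.0.16 (R 4.3.3), robust quasi-likelihood, Benjamini-Hochberg adjustment over 12033 genes at 0.05; the biological coefficient of variation was 15.8%. The steps were tested on simulated data. Alternatives were other scalings and filters, DESeq2 1.42.0, limma 3.58.1 on voom values or on log2 of TPM or FPKM (pseudocount 1 or 0.1), a block for replicate number, and libraries left out. The members and gene lists were chosen with earlier results of these data known. Beside the 10 markers, named genes are called ones, abundant list members, direct partners, those with an unadjusted p under 0.05 and examples; the last 2 kinds were chosen after their values were seen. Promoters are RefSeq's for GRCm38.p6 and matched 6 of 10 genes.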

Additional observations from a re-analysis of the deposited data

How the results depend on the processing

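None of the 10 markers was called under any of the 19 alternatives, and Stab2 stayed positive and Oit3 negative in all of them. In 163 of 190 values the direction of a marker was kept. With library totals as scaling, Pecam1 had -0.0040, Fcgr2b -0.067 and Eng -0.056, and the median of all genes was itself -0.084. On log2(TPM + 1), with or without the low-value filter, Clec4g had -0.045, Pecam1 -0.031, Fcgr2b -0.12 and Eng -0.084, and with a pseudocount of 0.1 they had -0.045, -0.034, -0.12 and -0.086. On log2(FPKM + 1) Fcgr2b had -0.066 and Eng -0.033, and the median of all genes was -0.059. On the TPM scale the median of all genes was itself -0.11 (pseudocount 1) or -0.13 (0.1), so the marker median of -0.10 there lay close to that of all genes. With 1 library left out in turn, log2 fold changes ran from -0.037 to 0.082 for Fcgr2b, from -0.13 to 0.13 for Eng, from -0.25 to 0.064 for Kdr, from -0.49 to 0.10 for Lyve1 and from -0.21 to 0.043 for Bmp2. Without wild type replicates 1 and 3 together, with 1 wild type library left, Stab1 had -0.058 and Eng -0.15. The cause of these sign changes was not tested.

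Over all genes, edgeR called 1; the count was 28 with DESeq2, 34 with the replicate block, 0 at a mean of at least 5 CPM, 0 on log2(TPM + 1) without a filter, 0 without wild type replicates 1 and 3, and 1 to 5 with 1 library left out (5 without knockout-labelled replicate 1). Same-numbered libraries deviated together with correlations of 0.27, 0.055 and 0.33. Each library correlated best with its own number, a hint of pairing in the data, but the labels name no shared source and the second value is below 0.1, so the numbers were not taken to pair the samples. With the replicate block 0 of 10 markers were called. Medians of several gene lists also moved or changed sign with 1 library left out: -0.08 to 0.09 for the other sinusoidal genes, -0.18 to 0.07 for the pan-endothelial genes, -0.19 to 0.035 for the growth factor axis, -0.039 to 0.21 for the endoglin list, 0.016 to 0.20 for hyaluronan turnover and -0.062 to 0.059 for the BMP and iron pathway. Groups of 3 libraries limit these comparisons; changes smaller than the intervals given cannot be resolved.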
